A study of Rattus norvegicus with 40 samples.

Results

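The mitochondrial ribosomal protein genes were followed in circulating and kidney T cells of Dahl salt-sensitive (SS) rats, a strain that becomes hypertensive on a diet rich in salt. The members were all gene models with a symbol starting with Mrpl or Mrps and a digit, in any case, and numbered 76 of 31677 gene models. Of these, 49 encode proteins of the large ribosomal subunit (all Mrpl genes, Mrps30 and Mrps18a) and 26 encode proteins of the small subunit. Mrps36 was kept apart, since its product is a subunit of the oxoglutarate dehydrogenase complex. RNA sequencing covered circulating and kidney T cells of 5 groups of rats, with 4 libraries per group and tissue and a pool of 3 rats in each library, 40 libraries in all. SS/MCW rats were taken on LS chow at 7 weeks of age, on LS chow at 10 weeks, and at 10 weeks after 3 weeks on HS chow. SS/CRL rats were taken at 10 weeks on LS chow and at 10 weeks after 3 weeks on HS chow. LS and HS are low-salt and high-salt chow, and MCW and CRL are spelled as in the labels. All rats were of the SS strain. The authors' deposited tables hold 1 expression value per group, in FPKM (fragments mapped, scaled by transcript length and library size), which leaves the variation among its 4 libraries and their depth unknown. Rose, fell and called are used only where the authors' deposited table gives a Cuffdiff q under 0.05. Every member was tested in all 15 tables, and none was listed at 0 in any group.

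The mitochondrial ribosome translates the small set of proteins encoded by mitochondrial DNA, all of them core subunits of the respiratory chain and the ATP synthase. Its RNAs come from the mitochondrial genome, but every one of its proteins is encoded in the nucleus, made on cytosolic ribosomes and imported. Many of these proteins descend from those of a bacterial ribosome, and others have no bacterial counterpart and were added during the evolution of mitochondria. Kidney tubule cells are rich in mitochondria, and resting circulating T cells hold comparatively few.

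Positions in the tables are the authors' loci on build rn5, which can hold several neighbouring gene models, and 23 members lay in such a shared locus. Promoters were looked up in RefSeq windows on build GRCr8, from 250 bases before to 50 bases after each start, and 61 of the 76 members had one. The sequence elements were searched on both strands: the NRF1 element (GCGC, any base, then TGCGC), the ETS element CCGGAAGT, the YY1 element AAGATGGC and the ZNF143-associated element (ACTACA, any 2 bases, then TCCC). The last was added after the windows had been seen. NRF1, ETS-family factors, YY1 and ZNF143 are transcription factors of many housekeeping promoters. The NRF1 element was in 9 of 61 member windows (14.8%), against 4.71% of the windows of 27457 genes. The ETS element was in 8 of 61 (13.1%, against 4.01%) and the YY1 element in 15 of 61 (24.6%, against 3.44%). In 11 of those 15 the first YY1 match began at or after the start. The ZNF143-associated element was in 5 of 61 (8.20%, against 1.85%). None of the 23 windows of genes called higher in kidney in all 5 groups of rats held the NRF1 element, and 9 of the other 38 did. For the ETS element these numbers were 4 of 23 and 4 of 38, for the YY1 element 7 and 8, and for the ZNF143-associated element 4 and 1. These splits were not tested, and that of the NRF1 element was singled out after the counts were seen. The other 38 were not all level or lower in kidney. Of the NRF1 holders among them, MRPL30, Mrpl17 and Mrps18b were called higher in 4 groups, and Mrpl44 and Mrpl45 in 2. The holders mrpl9 and Mrpl32 were called lower in 3 and 2 groups, and MRPL14 and Mrps26 were not called. A match is a description of letters, not evidence of binding.

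The stretches below run from 120 bases before the start to 30 after it, 5′ to 3′, and were chosen for the members on which the results turn. Each matched element that lies wholly within a stretch is in capitals. Mrpl12 (chr10:106256626-106256775, plus strand) had one of the largest excesses in kidney and Mrps15 (chr5:143606021-143606170, plus strand) was the member called lower there in every group of rats, and neither stretch held an element. The mrpl9 (chr2:184770947-184771096, plus strand) and Mrpl32 (chr17:55260531-55260680, plus strand) genes, also called lower in part of the groups, held the NRF1 element. Mrpl23, called lower in 1 group, held no element and is shown further below. Mrpl27 (chr10:80092225-80092374, plus strand) and Mrps18a (chr9:22367351-22367500, minus strand), both higher in kidney in all groups, show the ETS and the YY1 element.
Mrpl12: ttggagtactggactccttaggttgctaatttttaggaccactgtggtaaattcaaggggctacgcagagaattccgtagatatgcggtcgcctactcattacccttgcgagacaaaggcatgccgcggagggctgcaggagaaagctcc
Mrps15: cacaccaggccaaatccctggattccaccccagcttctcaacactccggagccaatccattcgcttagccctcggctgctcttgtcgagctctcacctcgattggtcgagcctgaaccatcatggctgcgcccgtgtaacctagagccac
mrpl9: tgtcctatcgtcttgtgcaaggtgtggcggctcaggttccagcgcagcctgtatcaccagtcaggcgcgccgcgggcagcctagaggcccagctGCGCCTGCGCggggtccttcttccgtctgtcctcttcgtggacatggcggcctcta
Mrpl32: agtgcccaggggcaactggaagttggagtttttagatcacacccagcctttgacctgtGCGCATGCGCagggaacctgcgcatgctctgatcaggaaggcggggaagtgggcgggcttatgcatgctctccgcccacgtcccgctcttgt
Mrpl27: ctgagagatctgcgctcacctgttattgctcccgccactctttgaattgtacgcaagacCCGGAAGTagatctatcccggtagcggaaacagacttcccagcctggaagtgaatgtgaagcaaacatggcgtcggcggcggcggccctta
Mrps18a: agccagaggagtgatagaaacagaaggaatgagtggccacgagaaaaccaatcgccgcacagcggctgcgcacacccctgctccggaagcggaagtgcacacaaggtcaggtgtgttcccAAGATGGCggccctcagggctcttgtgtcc

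Mrpl50 (chr5:68668058-68668207, minus strand), which was higher in kidney in all groups, and the members Mrpl34 (chr16:18186327-18186476, plus strand) and Mrpl54 (chr7:9103405-9103554, plus strand), called between ages in blood, show the ZNF143-associated element, which stands at 2 places in the Mrpl34 stretch. Mrpl23 (chr1:207116810-207116959, plus strand), called with them and also called lower in kidney in 7-week SS/MCW LS rats, held none of the elements. The Mrpl50 window also held a YY1 element, at position 27 counted from the start, which runs past the stretch and is not in capitals.
Mrpl50: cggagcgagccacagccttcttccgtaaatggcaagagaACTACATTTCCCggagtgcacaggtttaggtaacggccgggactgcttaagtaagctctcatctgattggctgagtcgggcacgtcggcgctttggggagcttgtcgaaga
Mrpl34: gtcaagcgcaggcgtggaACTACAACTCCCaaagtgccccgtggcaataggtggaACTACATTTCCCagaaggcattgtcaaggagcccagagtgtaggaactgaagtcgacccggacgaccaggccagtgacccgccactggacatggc
Mrpl54: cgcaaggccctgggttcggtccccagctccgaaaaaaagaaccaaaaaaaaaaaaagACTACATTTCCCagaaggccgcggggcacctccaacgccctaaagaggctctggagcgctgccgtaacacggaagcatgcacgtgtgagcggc
Mrpl23: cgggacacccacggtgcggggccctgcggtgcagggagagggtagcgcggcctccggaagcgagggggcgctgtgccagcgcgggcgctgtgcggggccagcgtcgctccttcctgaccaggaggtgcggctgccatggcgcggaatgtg

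Mrpl46 (chr1:142117001-142117150, minus strand) and Mrps11 (chr1:142117144-142117293, plus strand) point away from each other, with 234 bases between their starts, so that the region before 1 gene is largely the region before the other. They are shown because their values differed between the tissues, as given below. Both have the same rn5 locus in the tables (chr1:141445106-141462800). The Mrpl46 window held a YY1 element at position 25 counted from the start, which runs past the stretch and is not in capitals.
Mrpl46: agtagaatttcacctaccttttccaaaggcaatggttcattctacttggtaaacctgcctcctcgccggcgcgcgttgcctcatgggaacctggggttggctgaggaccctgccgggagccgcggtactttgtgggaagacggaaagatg
Mrps11: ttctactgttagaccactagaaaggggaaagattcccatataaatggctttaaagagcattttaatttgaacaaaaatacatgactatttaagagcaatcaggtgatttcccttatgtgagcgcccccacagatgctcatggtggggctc

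In circulating T cells the members ranged over more than an order of magnitude. The highest median FPKM over the 5 groups of rats was that of MRPS21 (168, range 136 to 204), followed by Mrpl33 (138), Mrpl53 (114), Mrpl23 (110) and Mrps33 (89.6). The lowest were Mrpl1 (5.28, range 4.35 to 5.97), Mrpl51 (5.78), Mrpl40 (6.39), Mrps10 (8.25) and Mrpl50 (9.16). In kidney cells the highest medians were those of Mrps6 (350, range 193 to 436), MRPS21 (247), Mrpl12 (199), Mrps34 (187) and Mrpl54 (177). The lowest there were Mrpl1 (7.26), Mrps10 (10.1), Mrpl51 (13.1), Mrpl40 (14.7) and Mrpl19 (18.7). The order of the genes was broadly shared between the tissues, with a rank correlation of 0.758 across the 76 genes, which share libraries and gene lengths. FPKM is a level per length, and these are comparisons of levels. For a given group of cells the median member differed by up to 1.15-fold between the tables that hold it, because each table was scaled separately.

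**Figure D1:**
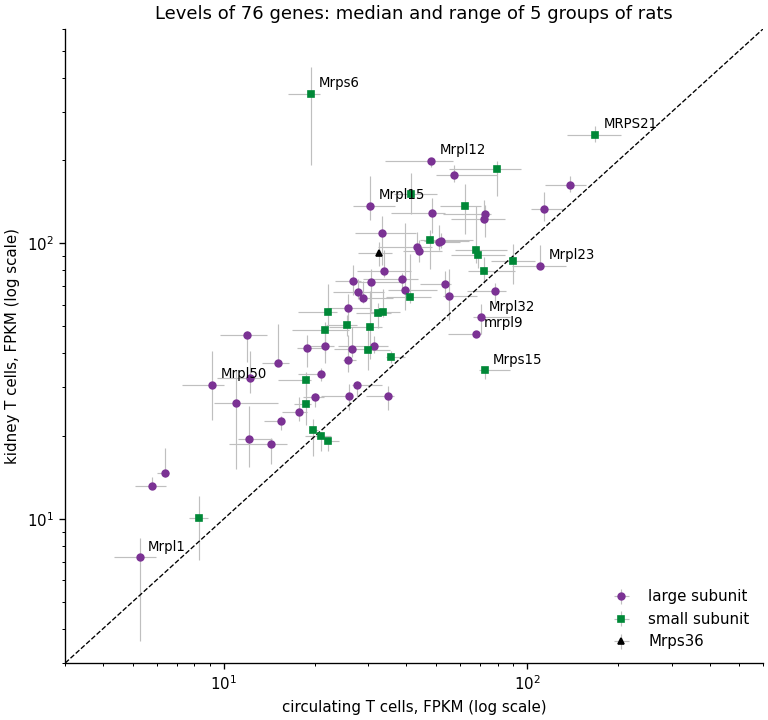
Median FPKM of each of the 76 genes in circulating (x axis, log scale) and kidney T cells (y axis, log scale); grey lines span the lowest and highest of the 5 groups of rats, purple circles are large-subunit genes, green squares small-subunit genes and the triangle is Mrps36. Most genes lie above the dashed line of equal values, Mrps6 farthest. Mrps15, mrpl9, Mrpl32 and Mrpl23 are labelled among the genes below it, which also include Mrps2, mrpl24, Mrps27, Mrps33 and Mrpl43.

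The first comparison was between the tissues of the same group of rats. Most mitochondrial ribosomal protein genes had higher values in the kidney cells, 62 to 70 of 76 in each group of rats, where 53.6% to 57.4% of all gene models tested did. In all 5 comparisons 30 of 76 members were called higher and Mrps15 was called lower, against 18.4% and 13.6% of the 18271 gene models tested in all 5. The 5 kidney values lay above all 5 circulating values in 53 members, and below them in 4 (Mrps15, mrpl9, Mrpl32 and Mrps2), against 43.6% and 34.8% of those gene models. In at least 1 comparison 54 members were called higher and 4 lower, against 41.4% and 35.5%, and 18 were called in none, against 23.6%. With p recomputed from the deposited test statistic under a normal distribution, 4 members in place of 30 were higher in all 5 comparisons (Mrpl12, Mrpl15, Mrpl54 and Mrps36). That is 5.26% of the members, and by the same p 6.94% of the gene models tested in all 5 were higher, those without a test statistic counting as not called. The members' share thus stood above the background by the deposited q and not by the normal p.

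In 7-week SS/MCW rats on LS, the median FPKM of the members was 35.8 in circulating and 60.0 in kidney cells, with 45 called higher and 4 lower. Over all gene models tested 32.9% were called higher and 23.9% lower. At 10 weeks on LS the medians were 27.7 and 59.0, with 41 called higher and 1 lower, against 26.6% and 17% of all. After HS they were 33.2 and 52.8, with 32 higher and 2 lower, against 30.6% and 18.4%. In SS/CRL rats on LS they were 27.2 and 57.3, with 54 higher and 1 lower, against 31.5% and 22%. After HS they were 31.8 and 57.0, with 45 higher and 3 lower, against 30.6% and 20.3%. The median log2 fold change of kidney over circulating was 0.70, 1.10, 0.60, 1.03 and 0.77 in that order, against 0.20, 0.24, 0.20, 0.38 and 0.46 over all gene models tested. By the normal p the members called in either direction were 21, 7, 5, 29 and 22, which is 27.6%, 9.21%, 6.58%, 38.2% and 28.9% of 76. The background was 29.5%, 13.9%, 18.0%, 27.8% and 26.5% of the gene models with a deposited test statistic. On that base the members' share was below the background in the 3 SS/MCW comparisons and above it in the 2 SS/CRL ones. The direction at 7 weeks depended on the base. There 5597 of 18962 gene models with a statistic were called, and over the 23120 tested the members' share was above the background. The median gene model with at least 5 FPKM in both tissues was itself lower in kidney, by -0.15 to -0.23 on the log2 scale, and relative to it the members' medians were 0.83 to 1.29. The 5 comparisons share no library, and the log2 fold changes of the 76 genes had rank correlations of 0.901 to 0.960 between them, across genes that are not independent.

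The kidney libraries held RNA of other cells. All 12 T cell markers fell in kidney in all 5 comparisons, and their summed level was 4841 to 6124 FPKM in circulating and 232 to 867 FPKM in kidney cells. The 7 proximal tubule markers summed to 0.0869 to 0.711 FPKM in circulating and 2071 to 8978 FPKM in kidney cells, with 3 of 7 called in all 5 comparisons, and Slc22a6 and Slc22a12 at 0 in some circulating groups. The 6 distal nephron markers summed to 4.63 to 7.74 against 1370 to 14182 FPKM, with 1 of 6 called in all 5, and Aqp2, Calb1, SLC12A1 and Umod at 0 in some circulating groups. Macrophage markers summed to 50.1 to 68.9 against 151 to 869 FPKM, with 6 of 8 called in all 5. Red cell markers summed to 59.3 to 193 against 403 to 3960 FPKM (3 of 4), and endothelial ones to 28.8 to 32.3 against 87.5 to 154 FPKM (1 of 5). Fibroblast markers summed to 0.00548 to 0.0935 against 36.2 to 280 FPKM (0 of 5). The 3 B cell markers summed to 22.5 to 44.1 FPKM in circulating and 2.28 to 6.23 FPKM in kidney cells, with 1 called lower in all 5. Their part in the members' differences was not tested. In such bulk libraries fewer cells of a type and less RNA per cell cannot be told apart.

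**Figure D2:**
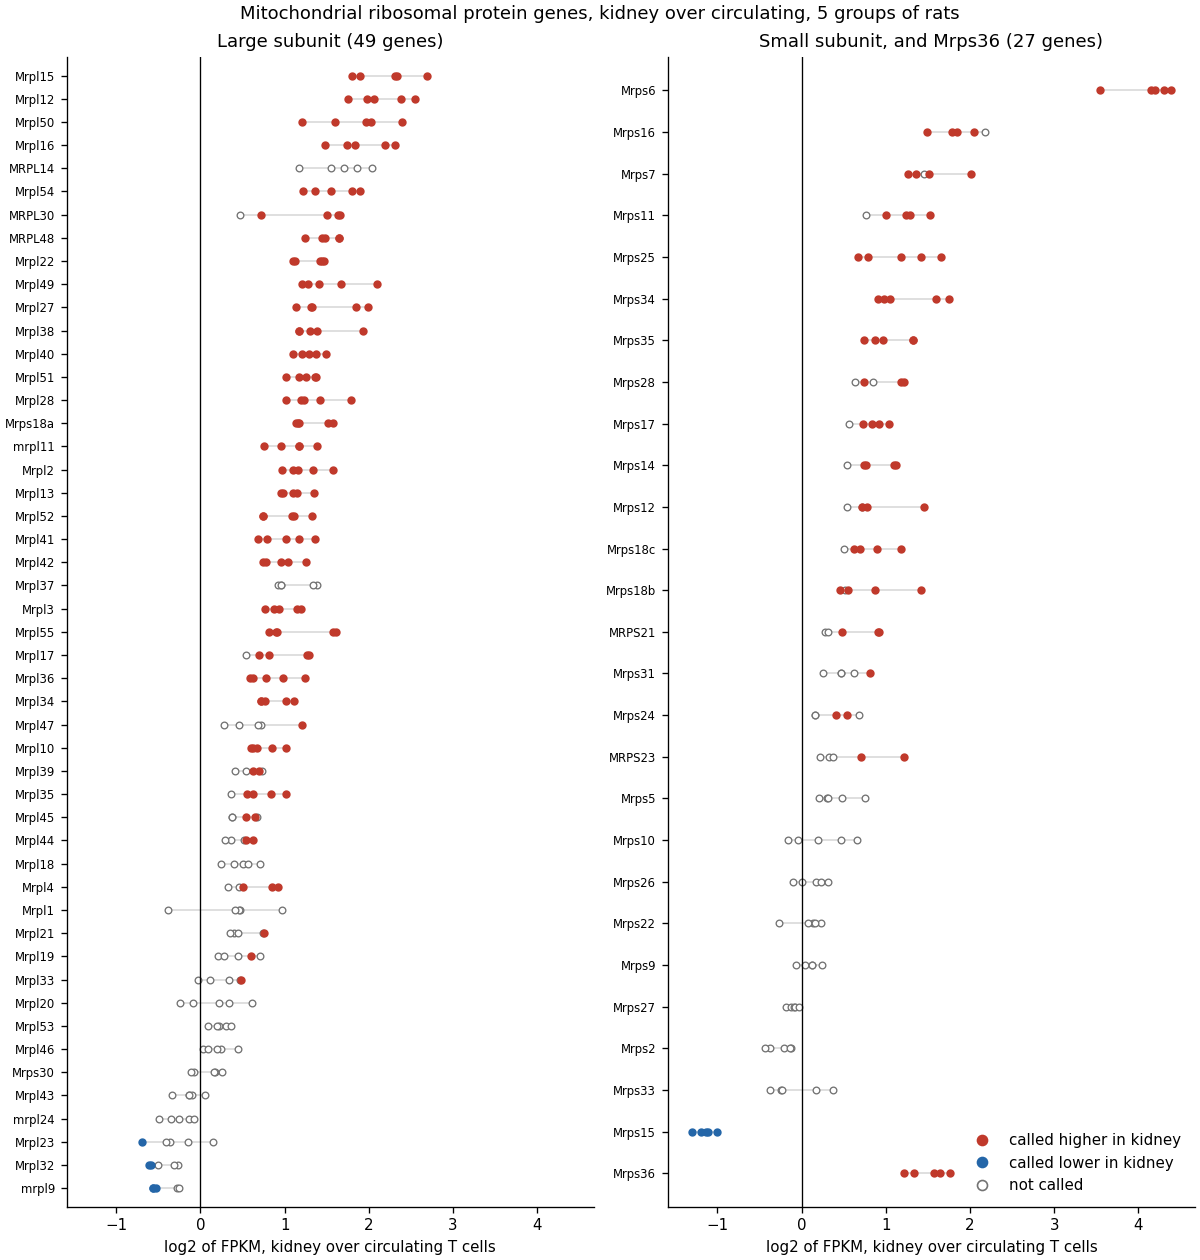
Log2 FPKM of kidney over circulating T cells for each gene (rows), 1 point per group of rats; filled points were called by the authors' q under 0.05, red higher and blue lower in kidney, and open points were not called. Of the large-subunit genes 25 of 49, and of the small-subunit genes 4 of 26, have 5 red points, against 18.4% of the gene models tested in all 5. Mrps15 has 5 blue points, against 13.6% of those gene models.

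Large-subunit genes carried most of the calls. Of 49, 25 (51.0%) were called higher in kidney in all 5 comparisons, against the 18.4% of gene models given above. By the normal p 3 of 49 (6.12%) were higher in all 5, against 6.94% of gene models, so this share was not above the background. By the deposited q 0 were lower in all 5, against 13.6%, and the median log2 fold change over the 49 large-subunit genes was 0.91. Those with a bacterial counterpart had 13 of 29 higher in all 5 (median 0.76), and those without one 11 of 19 (median 1.01). Mrpl55 was placed in neither class and was higher in all 5. The difference between the classes was not tested.

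Mrpl15, a protein of the ribosomal core with a bacterial counterpart, had the largest excess among large-subunit genes by its median over the 5 comparisons. It lay at 36.8, 26.7, 34.9, 27.1 and 30.4 FPKM in circulating cells of 7-week SS/MCW LS, 10-week SS/MCW LS, SS/MCW HS, SS/CRL LS and SS/CRL HS rats, and at 137, 135, 122, 175 and 151 FPKM in kidney. The tissues did not overlap, and the log2 fold change was 1.80 to 2.69. Its q in the authors' deposited tables was between 0.000141 and 0.000221, which corresponds to the smallest deposited p of 5e-05. Mrpl12, which forms the flexible stalk that binds translation factors and has also been reported to bind the mitochondrial RNA polymerase, lay at 57.1, 38.9, 48.2, 34.0 and 49.0 FPKM in circulating and 192, 203, 189.9, 199 and 204 FPKM in kidney cells in the same order. Its kidney values were nearly level while the circulating ones varied, and its log2 fold change was 1.75 to 2.55. Mrpl16 lay between 9.71 and 13.9 FPKM in circulating and between 37.0 and 48.2 FPKM in kidney cells (log2 1.47 to 2.31). Mrpl50, a protein without a bacterial counterpart, lay between 7.30 and 10.0 against 22.9 and 40.9 FPKM (log2 1.21 to 2.39). Mrpl54, of the same class, lay between 50.3 and 79.6 against 168 and 193 FPKM (median log2 1.55). All of these were called in all 5 comparisons.

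MRPL14 had a similar excess with no call. It lay at 27.1 to 43.0 FPKM in circulating and 83.7 to 126 FPKM in kidney cells, without overlap, and its q in the authors' deposited tables was between 0.114 and 0.371. Its deposited locus spans 199 kb and holds 10 gene models. Mrpl37, in a locus of 153 kb, was likewise higher in all 5 by value (17.4 to 21.4 against 35.6 to 46.4 FPKM) and called in none. Mrpl53, which shares a gene model with Ccdc142, lay at 103 to 131 against 121 to 153 FPKM and was called in none. Mrpl28, in a gene model with Tmem8a, was called higher in all 5 (27.5 to 41.3 against 75.8 to 94.9 FPKM). Mrpl13, in a locus of 376 kb, was called higher in all 5 (38.8 to 52.3 against 85.9 to 103 FPKM).

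Among genes of low level, Mrpl40 lay at 6.02 to 6.60 against 14.2 to 18.1 FPKM and Mrpl51 at 5.08 to 6.45 against 13.0 to 14.2 FPKM, both called higher in all 5. Mrpl1, at 4.35 to 5.97 against 3.61 to 8.49 FPKM, overlapped between the tissues and was called in none. Mrpl19 (10.4 to 16.1 against 15.8 to 19.6 FPKM) was called higher in 1 comparison. Mrps30, an animal-specific protein of the large subunit, lay at 26.5 to 33.3 against 27.5 to 31.6 FPKM and was called in none. Of the abundant genes, Mrpl33 lay at 115 to 157 against 154 to 176 FPKM and was called higher in 1 comparison.

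Small-subunit genes had 4 of 26 higher in all 5 comparisons (Mrps6, Mrps25, Mrps34 and Mrps35) in the kidney cells, and a median log2 fold change of 0.52. The 4 are 15.4% of the small-subunit genes, against the 18.4% of gene models given above. Except for Mrps25 they share a gene model with another gene, and over the 23 small-subunit genes alone on 1 gene model 1 was higher in all 5. Those with a bacterial counterpart had 1 of 16 higher in all 5, and those without one 3 of 10. Whether the subunits differ was not tested.

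Mrps6 had the largest excess of all members. It lay at 20.8, 16.2, 19.3, 16.6 and 19.8 FPKM in circulating and 436, 322, 355, 193 and 350 FPKM in kidney cells, in the order of groups used above, with a log2 fold change of 3.54 to 4.39. Its gene model also carries Itsn1, an endocytic scaffold gene, and its locus spans 370 kb, so reads of the 2 genes cannot be separated in these tables. Mrps16, a core protein with a bacterial counterpart, lay at 50.3, 37.9, 45.7, 36.5 and 41.3 against 181, 171, 128, 151 and 143 FPKM. It was called in 4 comparisons, and in 10-week SS/MCW LS rats it stood just over the threshold. Mrps34, in a gene model with Nme3, lay at 55.2 to 95.9 against 149 to 199 FPKM. Mrps35, in a gene model with Klhl42, lay at 21.7 to 27.6 against 46.0 to 55.2 FPKM. Mrps25 lay at 51.5 to 70.6 against 108 to 164 FPKM.

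Mrps12, a protein of the decoding centre, lay at 32.8, 24.4, 30.4, 22.2 and 33.1 FPKM in circulating and 54.0, 67.1, 49.9, 38.1 and 48.1 FPKM in kidney cells, without overlap, and was called higher in 3 comparisons. MRPS21, the most abundant member in blood, was called higher in 3 (233 to 266 FPKM in kidney). Mrps28, in a locus of 135 kb, was called in 3 (44.3 to 66.6 against 80.6 to 112 FPKM). Mrps10, among the lowest, overlapped (7.67 to 8.84 against 7.11 to 12.1 FPKM), and so did Mrps33 (76.3 to 106 against 71.0 to 99.2 FPKM); neither was called.

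The neighbours Mrps11 and Mrpl46, whose starts are shown above, differed in their values. Mrps11 lay at 25.9, 18.9, 23.5, 16.8 and 21.5 FPKM in circulating and 52.0, 46.3, 40.0, 48.3 and 50.9 FPKM in kidney cells and was called higher in 4 comparisons. Mrpl46 lay at 26.2, 21.8, 25.9, 20.9 and 26.2 against 30.9, 24.9, 26.4, 28.5 and 27.9 FPKM and was called in none. In blood the Mrpl46 values exceeded the Mrps11 values in every group, by 1.01 to 1.24 times, and in kidney the Mrps11 values exceeded the Mrpl46 values in every group, by 1.51 to 1.86 times. The difference between the 2 fold changes was not tested.

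Mrps36, the oxoglutarate dehydrogenase subunit, lay at 35.9, 27.7, 33.3, 30.9 and 32.4 FPKM in circulating and 83.1, 94.3, 84.1, 91.9 and 102 FPKM in kidney cells. It was called higher in all 5 comparisons, with a log2 fold change of 1.21 to 1.76.

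The members lower in kidney were few. Mrps15, a core protein of the small subunit with a bacterial counterpart, lay at 87.6, 69.3, 81.2, 69.5 and 72.4 FPKM in circulating and 35.5, 34.6, 35.4, 32.1 and 33.0 FPKM in kidney cells. The tissues did not overlap, and the log2 fold change had a median of -1.13 and a lowest value of -1.30, with q in the authors' deposited tables between 0.000141 and 0.00289. Relative to the median gene model it was still -1.08 to -0.81. The mrpl9 gene fell in 7-week SS/MCW LS, SS/MCW HS and SS/CRL HS rats (log2 -0.56, -0.57 and -0.53, or -0.34, -0.33 and -0.31 relative to the median gene model), and lay at 55.0 to 70.4 in circulating and 46.1 to 47.5 FPKM in kidney cells over all groups. Mrpl32, whose protein is processed by a mitochondrial protease before it joins the ribosome, fell in 7-week SS/MCW LS (87.6 to 57.3 FPKM) and SS/CRL HS rats (70.3 to 46.9 FPKM), by log2 -0.39 and -0.37 relative to the median gene model. Mrpl23, a protein near the exit of the peptide tunnel, fell in 7-week SS/MCW LS rats, from 134 to 82.7 FPKM (log2 -0.70, or -0.48 relative to the median gene model). In the other groups its circulating and kidney values were 89.0 and 98.5, 121 and 94.4, 90.1 and 81.3, and 110 and 83.1 FPKM, none of them called.

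Genes that work with the mitochondrial ribosome were read in the same comparisons. Of the gene models tested in all 5, 18.4% were called higher and 13.6% lower in all 5. Of 6 ribosomal proteins whose symbols lack the prefix, 1 was called higher in all 5, Ict1, the older symbol of the peptidyl-tRNA hydrolase Mrpl58, at 37.0 to 51.3 against 77.7 to 91.7 FPKM. Of 16 translation factors 5 were higher and 0 lower in all 5 comparisons, with list medians of 0.65 to 0.98. These were the release factor Mtrf1 (1.07 to 1.48 against 6.53 to 10.1 FPKM), the elongation factors Tufm (27.9 to 38.6 against 85.9 to 107 FPKM) and Gfm1 (12.9 to 13.9 against 32.0 to 33.8 FPKM), Taco1, an activator of cytochrome oxidase subunit translation, and the membrane insertase Oxa1l. Of 17 assembly factors 1 was higher in all 5, Malsu1, a large-subunit assembly factor (median log2 1.63), and 1 lower, the GTPase Noa1 (10.0 to 11.9 against 3.40 to 6.30 FPKM). Of 15 mitochondrial aminoacyl-tRNA synthetases, Fars2 and Rars2 were higher in all 5 and 0 were lower. The share higher in all 5 was below 18.4% for the proteins without the prefix, the assembly factors and the synthetases.

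Of 14 genes of mitochondrial DNA maintenance and transcription, the elongation factor Tefm and the helicase gene Peo1 were higher in all 5. That share was also below the 18.4% of gene models. Nrf1, which encodes the factor named for the element searched above, was lower in all 5, at 23.6 to 25.7 in circulating and 9.01 to 11.5 FPKM in kidney cells. A link between its level and the element was not tested. Other genes of the list went either way. Esrra lay at 5.88 to 6.94 against 31.4 to 46.7 FPKM (called higher in 3), and Ppargc1a at 0 to 0.0312 against 15.3 to 22.8 FPKM (called in 1). Gabpa lay at 13.9 to 15.7 against 4.67 to 7.14 FPKM and was called in none. The medians of the assembly, synthetase and DNA lists lay between -0.09 and 0.42. Nuclear-encoded respiratory chain subunits had 71 of 84 called higher and 1 lower in all 5, with medians of 1.56 to 2.04. Cytosolic ribosomal proteins had 1 of 118 higher and 70 lower in all 5, with medians of -2.57 to -1.57. The members thus lay between the respiratory chain and cytosolic ribosome lists in each comparison. The lists were not compared by a test.

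**Figure D3:**
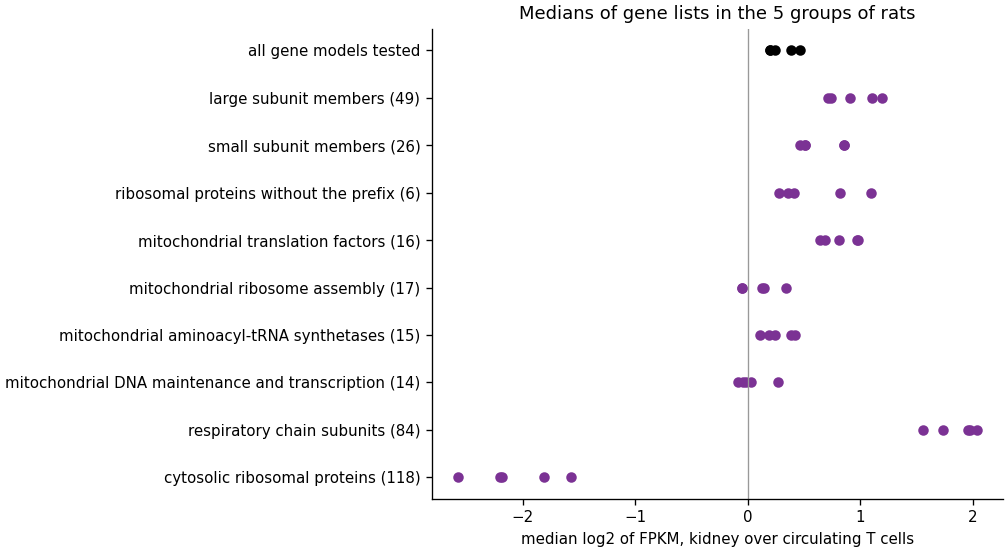
Median log2 FPKM of kidney over circulating T cells for each gene list (rows, number of genes in brackets), 1 point per group of rats; black points are all gene models tested. The medians of the large-subunit genes lie above those of all gene models, below the respiratory chain (1.56 to 2.04) and above the cytosolic ribosomal proteins (-2.57 to -1.57).

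Within a tissue, the comparisons were between groups that differed in salt, colony or age. The kidney groups also differed in the markers of other cells, as given below. The 10 comparisons share groups: the 10-week SS/MCW LS rats stand in the salt, colony and age comparisons of each tissue. In 9 of the 10, 0 members were called by the Cuffdiff q, and in circulating cells 4 were called between ages.

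Circulating cells of SS/MCW rats on LS had lower values at 10 than at 7 weeks for 73 of 76 members, and 4 members fell (1.94% of all gene models tested were called in either direction). At an unadjusted p under 0.05 there were 34, all lower at 10 weeks, against 13% of all gene models. The median log2 change was -0.38, against -0.01 over all gene models above 0 at both ages and at 1 FPKM or more at the higher. Of those 48.6% had a higher value at 10 weeks. Mrpl23 fell from 121 to 79.9 FPKM (log2 -0.60, q 0.0375 in the authors' deposited table). Mrpl54 fell from 71.8 to 46.4 FPKM (log2 -0.63, q 0.0391). Mrps24, a small-subunit protein, fell to 50.6 FPKM (log2 -0.59, q 0.0447), and Mrpl34, a small large-subunit protein with a bacterial counterpart, from 76.5 to 50.3 FPKM (log2 -0.60, q 0.0460). Just outside the threshold stood MRPS21 (184 and 122 FPKM, q 0.0509), Mrpl41 (39.3 and 25.9 FPKM, q 0.0646) and Mrpl12 (51.5 and 35.0 FPKM, q 0.0688) in the same authors' deposited table. By a q under 0.01, or by the normal p, 0 were called. By that normal p 0.0469% of the gene models with a test statistic were.

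The fall with age was not limited to mitochondrial ribosomal genes by these counts. In the same comparison 12 of 118 cytosolic ribosomal protein genes and 10 of 84 respiratory chain genes were called lower and 0 higher, with medians of -0.42 and -0.44. Of the ribosomal proteins without the prefix, Aurkaip1 fell from 98.9 to 63.2 FPKM (log2 -0.65). The summed FPKM of all gene models was 947063 at 7 and 765701 at 10 weeks, and the summed T cell markers were 5515 and 4451 FPKM with 0 of 12 called. Red cell markers summed to 174 and 53.4 FPKM, with 3 of 4 called lower. The part of these in the result was not tested. In kidney cells 43 of 76 members had higher values at 10 weeks, with a median of 0.04 against 0.09 over all gene models by the same FPKM limits, of which 56.9% had a higher value. Of the members 0 were called there, against 1.07% of all, and 1 had an unadjusted p under 0.05, Mrpl36 at 134 and 78.9 FPKM, against 7.95%. Mrpl36 was named after its values were seen. Summed markers also moved with age in kidney: from 7 to 10 weeks the red cell sum was 686 and 4611 FPKM (2 of 4 called higher), the T cell sum 275 and 575 (1 of 12), the macrophage sum 195 and 423 (2 of 8) and the fibroblast sum 110 and 327 (1 of 5). The proximal tubule sum was 2318 and 4299 FPKM and the distal nephron sum 15959 and 4814 FPKM, with 0 called. Their part was not tested. The difference of the age effect between the tissues was not tested.

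**Figure D4:**
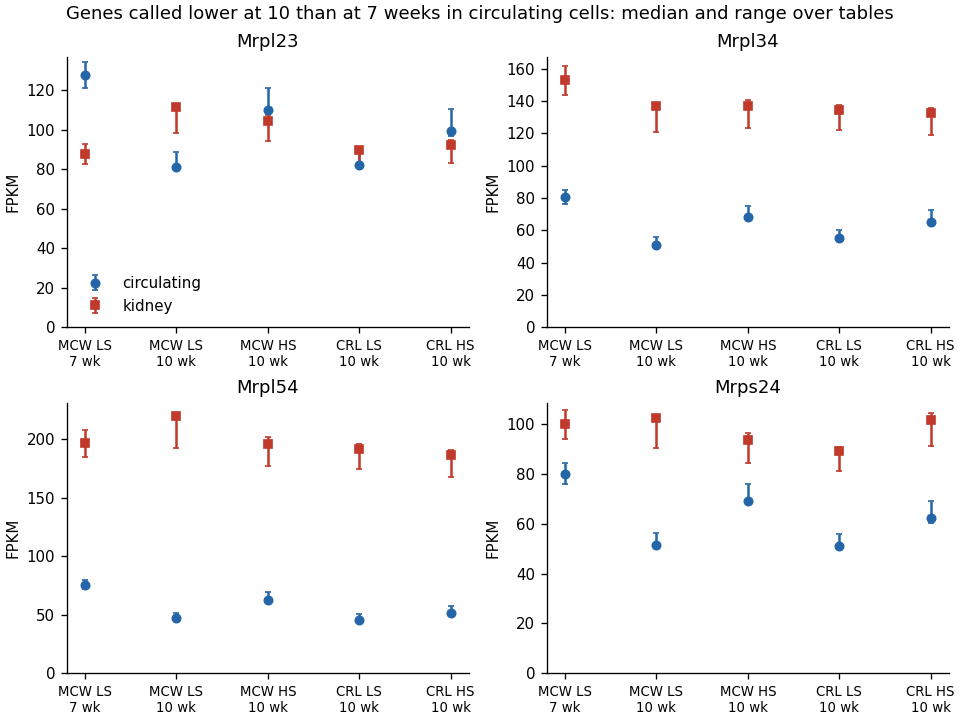
FPKM of the 4 genes called between ages, in circulating (blue circles) and kidney T cells (red squares) of the 5 groups of rats (x axis); points are the median and bars the range over the 2 to 4 tables that hold the group, not a spread among rats. Circulating values are highest at 7 weeks in all 4 panels, and higher on HS than on LS chow at 10 weeks in both types of rats. The order of the 7-week and 10-week SS/MCW LS groups follows from how the genes were chosen. That 10-week group is also the LS side of the SS/MCW salt difference, and no salt difference was called.

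High salt was compared with low salt within each type of rat at 10 weeks, in SS/MCW rats against the same LS group that the age comparison used. In circulating cells of SS/MCW rats 73 of 76 members had higher values on HS, with a median log2 change of 0.28 against 0.04 over all gene models, and 0 were called (0.107% of all). At an unadjusted p under 0.05 there were 10, all higher, against 6.37% of all gene models. The largest value change was that of Mrpl41, 26.0 and 38.4 FPKM (q 0.459 in the authors' deposited table). In SS/CRL rats 67 of 76 had higher values on HS, with a median of 0.19 against 0.03, and 0 were called (0.67% of all). At the unadjusted p there were 11, all higher, against 9.18%. There Mrpl12 was at 31.0 and 44.1 FPKM (q 0.0585 in the authors' deposited table) and Mrps12 at 20.3 and 29.8 FPKM (q 0.366). The 2 salt comparisons share no library. The summed FPKM of all gene models was higher on HS in both, at 912355 against 767455 and 851015 against 776927, and the summed T cell markers were 4461 and 5266, and 4410 and 4986 FPKM. Red cell markers summed to 53.5 and 65.9 FPKM on LS and HS in SS/MCW rats (0 of 4 called) and to 76.4 and 141 FPKM in SS/CRL rats (3 of 4 called higher). In SS/CRL rats 1 of 6 distal nephron markers was also called higher (sums of 5.92 and 6.96 FPKM). Their part in the members' values was not tested.

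In kidney cells of SS/MCW rats 61 of 76 members had lower values on HS, with a median of -0.17 against -0.06 over all gene models. Of these 0 were called (0.433% of all) and 0 had an unadjusted p under 0.05 (4.27% of all). The widest change was that of MRPL30, at 35.7 and 16.9 FPKM (log2 -1.08, q 1.00 in the authors' deposited table). In SS/CRL rats the median was -0.03 against 0.05, and 0 were called, where 5.51% of all gene models were. At the unadjusted p there were 2, Mrps18b (103 and 67.4 FPKM) and Mrpl38 (57.2 and 41.0 FPKM), both lower on HS and named after their values were seen, against 14.7%. Proximal tubule markers differed between these kidney groups as well, summing to 4307 and 2557 FPKM on LS and HS in SS/MCW rats (0 of 7 called) and to 10123 and 5194 FPKM in SS/CRL rats (4 of 7 called lower). Red cell markers summed to 4608 and 450 FPKM in SS/MCW (2 of 4 called lower) and to 3103 and 679 FPKM in SS/CRL rats (3 of 4). T cell markers summed to 575 and 964 FPKM in SS/MCW (1 of 12 called higher) and to 343 and 257 FPKM in SS/CRL rats (1 called lower). In SS/MCW rats the macrophage sum was 424 and 966 FPKM (1 of 8 called higher) and the fibroblast sum 327 and 70.9 FPKM (1 of 5 called lower). In SS/CRL rats 2 of 6 distal nephron and 3 of 5 endothelial markers were called higher, with sums of 1536 and 2247, and of 98.0 and 172 FPKM. The part of these in the members' values was not tested.

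SS/CRL rats were compared with SS/MCW rats on the same chow at 10 weeks. In circulating cells on LS the members' median log2 difference of SS/CRL over SS/MCW was -0.03, against -0.01 over all gene models, with 0 called (0.541% of all) and 0 at the unadjusted p (3.59%). On HS it was -0.12 against -0.02, with 70 of 76 values lower, 0 called (0.241%) and 0 at the unadjusted p (2.17%). In kidney cells on LS it was -0.08 against -0.01, with 0 called (1.81%) and 0 at the unadjusted p (9.67%). On HS it was 0.08 against 0.12, with 0 called (5.72%) and 2 at the unadjusted p (13.9%). Those were Mrpl50 (26.1 and 46.6 FPKM) and MRPL30 (log2 0.79), both named after their values were seen. The widest colony difference was in Mrpl1, a low gene, in kidney on LS (log2 -1.24). In circulating cells the widest differences between colonies were those of Mrps34 on LS (log2 -0.27) and Mrpl35 on HS (log2 -0.33). Markers differed between the kidney groups as well: on HS 11 of 12 T cell and 8 of 8 macrophage markers were called lower in SS/CRL rats, their sums being 265 and 178 FPKM there and 996 and 999 FPKM in SS/MCW rats. On LS 2 of 7 proximal tubule markers were called higher in SS/CRL rats (sums of 4176 and 9920 FPKM), and 1 T cell, 2 macrophage and 2 fibroblast markers lower. In circulating cells on HS 3 of 4 red cell markers were called higher in SS/CRL rats (66.2 and 137 FPKM), and on LS 2 of 3 B cell markers (20.8 and 36.7 FPKM). Of 12 T cell markers 0 were called on either chow. Their part was not tested.

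**Figure D5:**
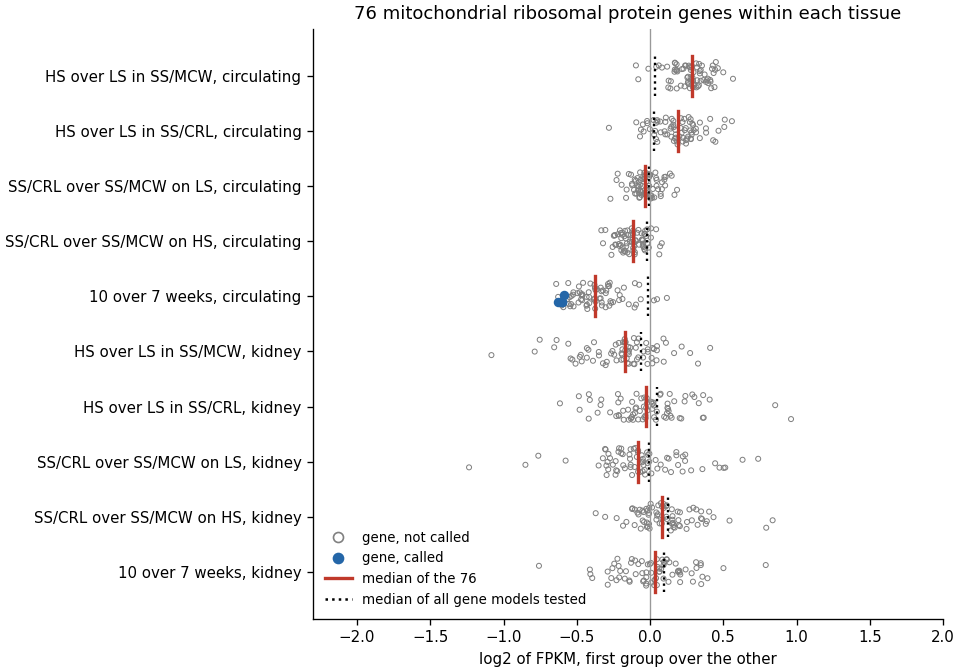
Log2 FPKM of the first over the other group for the 76 genes (points) in the 10 comparisons within a tissue; red bars are the medians of the 76, dotted bars those of all gene models tested, and filled points are called genes. The median of the 76 departs most from that of all gene models between ages in circulating cells (-0.38 against -0.01), and the kidney comparisons scatter more widely.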

How the data were processed

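RNA of 40 libraries was sequenced after a TruSeq preparation, per the labels' protocols; whether strand was kept is not stated. Per the submitters' processing notes, cutadapt, Trim Galore 0.2.5, TopHat, TopHat2 2.1.1, Cufflinks 2.2.1, Cuffdiff and build rn5 were used. Per the file headers, the 15 deposited tables give FPKM, 1 value per group, with the authors' test statistic, p-value and q-value; each table was scaled on its own. With no values per library used, depth and the precision it gives are unknown. The deposited p-values are those of the authors' Cuffdiff test between groups of 4 libraries, each a pool of 3 rats per the labels. They do not give the spread among rats or pools.

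Log2 fold changes were computed from FPKM, with 1 table reversed. Medians, and shares of all gene models with a higher value, left out gene models under 1 FPKM in both groups or at 0 in either. Members and lists were chosen with earlier results of these data known. Named were up to 5 called members with the largest rise and fall per comparison (at least 5 FPKM), the 5 highest and lowest per tissue, members called within a tissue or against the direction of most, members sharing a gene model, and Mrps12, Mrpl12, Mrps36 and Mrps30. Others were named after their values were seen, where a count or a wide locus called for it. For related lists the rule was up to 3 called genes with the largest change. Beyond that rule, genes called in all 5 tissue comparisons were named, up to 5 per list. Gabpa, which was not called, was named after its values were seen. Alternatives were a q under 0.01, a 1 FPKM minimum with p adjusted again, p recomputed from the test statistic under a normal distribution, gene models with 1 symbol, a pseudocount of 1, a 5 FPKM minimum, recentring on gene models whose 2 values reach 5 FPKM and, added after seeing the data, gene models up to 100 kb and the alternatives of the counts applied to each subunit. The p-value adjustment was tested on simulated data. Promoter windows are RefSeq's, build GRCr8. The software was matplotlib 3.10.9, scipy 1.17.1, pandas 2.3.3 and numpy 2.4.6 in Python 3.11.15.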

Additional observations from a re-analysis of the deposited data

How the results depend on the processing

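With a normal p recomputed from the test statistic, the members called in kidney over circulating were 21, 7, 5, 29 and 22 (SS/MCW LS 7 weeks, SS/MCW LS 10 weeks, SS/MCW HS, SS/CRL LS, SS/CRL HS), those higher in all 5 were 4, and those called between ages in circulating cells 0; the cause was not tested. With a q under 0.01 there were 22 in SS/MCW HS and 0 between ages, and 21 in place of 30 higher in all 5. The other counts over all members stayed within 1.5 times under these alternatives. For the subunits, settings applied after seeing the data left 3 (normal p) to 25 large-subunit genes higher in all 5, and in place of 4 small-subunit genes 0 by the normal p, 1 with 1 symbol on 1 gene model and 3 to 5 otherwise. Counts in related gene lists were not recomputed. Of 15 medians, recentring on all gene models moved the 5 tissue medians to 0.93, 1.29, 0.83, 1.18 and 0.99 and turned that of 10 over 7 weeks in kidney to -0.0090; without gene models over 100 kb, a choice made after seeing the data, the SS/CRL LS median was 0.92. The signs of all other medians held under these alternatives. No paired analysis was possible because the tables give 1 value per group, although pool numbers are shared between the tissues; for the same reason no replicate could be left out. Unknown depth limits what the low genes such as Mrpl1 can show, and the smallest deposited p of 5e-05 limits how calls can be ranked.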
